A study of Hydra vulgaris with 30 samples.

Results

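The transcriptome of UNC0379-treated *Hydra* tips was compared between the moment of decapitation and 3 hours postamputation (hpa), with 3 libraries at 0 hpa and 3 at 3 hpa, 6 of the 30 libraries of the series. All 30 were made from polyps of the *Hydra vulgaris* strain Ind-Pune, kept as a clone, which were decapitated and whose regenerating tips were collected for RNA sequencing from the 3′ end with the QuantSeq kit. The UNC0379 group was kept in 150 uM of the inhibitor according to the treatment field of the labels, which give the same figure in mM in another field. The DMSO group received 0.2% of this vehicle, and the 6 DMSO libraries of 0 and 3 hpa serve here as the control course. For its regeneration assays the study gave the inhibitor before decapitation and kept it on afterwards. If the sequenced polyps were treated in the same way, tips of 3 hpa had been cut and had also been exposed for longer than tips of 0 hpa, and without uncut polyps these cannot be told apart.

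A *Hydra* polyp that loses its head closes the wound within hours and then sets up a new head organizer, a small signalling centre at the tip whose Wnt ligands act through frizzled receptors and β-catenin. *Brachyury*, which encodes a T-box transcription factor, is among the genes switched on in the forming head. SETD8, also called KMT5A, places a single methyl group on lysine 20 of histone H4, a mark tied to chromatin compaction and the cell cycle in animals, and UNC0379 is a small molecule that blocks this enzyme. The comparison asks which transcripts change in the first hours after the cut when the enzyme is inhibited.

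Each file holds raw read counts for 51290 transcripts. Reads assigned to a transcript numbered 499958, 612025 and 648321 at 0 hpa and 316893, 495180 and 730700 at 3 hpa, so that a single read was worth between 1.37 and 3.16 CPM (the count scaled to a common library size). The 5046 transcripts that passed the filter on low counts held 97.2% of the assigned reads. None of the identifiers of the changed transcripts was found in the reference gene table, so that tissue markers could not be checked and most results below concern groups of transcripts. Reads that matched more than 1 transcript ambiguously numbered 1.1 to 1.2 per assigned read at 0 hpa and 1.03 to 1.09 at 3 hpa, groups that do not overlap (exact permutation test, two-sided, p = 0.1, the smallest that 3 libraries against 3 allow). Their part in the results was not tested. The labels do not say whether replicates are separate cultures, and the p-values may measure technical spread only. In tips made of several cell types, fewer cells of a type and less RNA per cell cannot be told apart.

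Replicate 3 of UNC0379 at 0 hpa stood apart from the other libraries of its group. The log2 levels of replicates 1 and 2 correlated across transcripts at r = 0.95, whereas replicate 3 reached 0.894 with replicate 1 and 0.87 with replicate 2. The 3 libraries of 3 hpa correlated at 0.935 to 0.954. Among 1914 transcripts at 50 CPM or more, replicate 3 was over 2-fold higher than the mean of replicates 1 and 2 for 61 and over 2-fold lower for 214, against 22 and 7 between replicates 1 and 2. Its deviation pointed towards the late DMSO tips and away from the earlier ones. Across the 5046 transcripts its deviation from the other libraries correlated at 0.478 with the change of DMSO tips from 0 to 24 hpa, or 0.325 without DMSO 24 hpa replicate 3, and at -0.275, -0.208 and -0.219 with the DMSO changes to 3, 8 and 12 hpa. Of 187 transcripts that rose in DMSO by 24 hpa (3.71% of those tested), 117 were higher in replicate 3 than in both other libraries (62.6%, against 40.6% of all tested transcripts) and 37 were lower than in both. Of 270 that fell (5.35%), 176 were lower than in both (65.2%, against 38.5% of all tested) and 51 were higher. Transcripts are not independent replicates, and these values are descriptions. The library was used as labelled, and whether its label is right was not tested. It enters every level and fold change against UNC0379 at 0 hpa, so that the main results below are also given without it.

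Under UNC0379 233 transcripts differed between 3 and 0 hpa at an adjusted p under 0.05 (edgeR quasi-likelihood test, Benjamini-Hochberg adjustment over 5046 transcripts), 4.62% of those tested. More transcripts fell than rose, 145 (2.87%) against 88 (1.74%). The rises were large and started from low levels. Their median log2 fold change was 1.89, with a range from 0.745 to 6.61, and 86 of the 88 exceeded 2-fold and 38 exceeded 4-fold. The median normalized level of these transcripts was 15.6 CPM at 0 hpa and 66.5 CPM at 3 hpa, where all tested transcripts had a median of 34 CPM at 0 hpa. The falls came from more abundant transcripts. Their median log2 fold change was -1.68, from -5.21 to -0.591, with 126 of 145 over 2-fold and 47 over 4-fold, and their median level went from 85 to 27.2 CPM. The libraries of both times did not overlap for 87 of the 88 rises, where 9.04% of all tested transcripts were higher in all 3 libraries of 3 hpa. The same held for 141 of the 145 falls, where 11.4% of all tested transcripts were lower in all 3. The median log2 fold change of all tested transcripts was -0.04.

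The change amounted to several percent of the messenger RNA counted. The 145 falling transcripts took 4.95%, 4.96% and 5.65% of the assigned counts in the 3 libraries of 0 hpa and 2.44%, 2.35% and 2.37% in those of 3 hpa. All 3 libraries of 3 hpa lay far below those of 0 hpa, whereas the DMSO libraries held 6.27% to 6.94% at 0 hpa and 6.16% to 6.28% at 3 hpa. The 88 rising transcripts took 0.289%, 0.295% and 0.237% of the counts at 0 hpa and 0.929%, 0.936% and 0.98% at 3 hpa. In DMSO they took 0.434% to 0.517% at 0 hpa and 0.431% to 0.47% at 3 hpa, between the UNC0379 values of 0 and 3 hpa. The members were chosen on the difference between the UNC0379 libraries, whose separation is therefore a description. The DMSO libraries entered the choice only through the filter, the normalization and the estimate of spread shared by all 30 libraries.

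**Figure D1:**
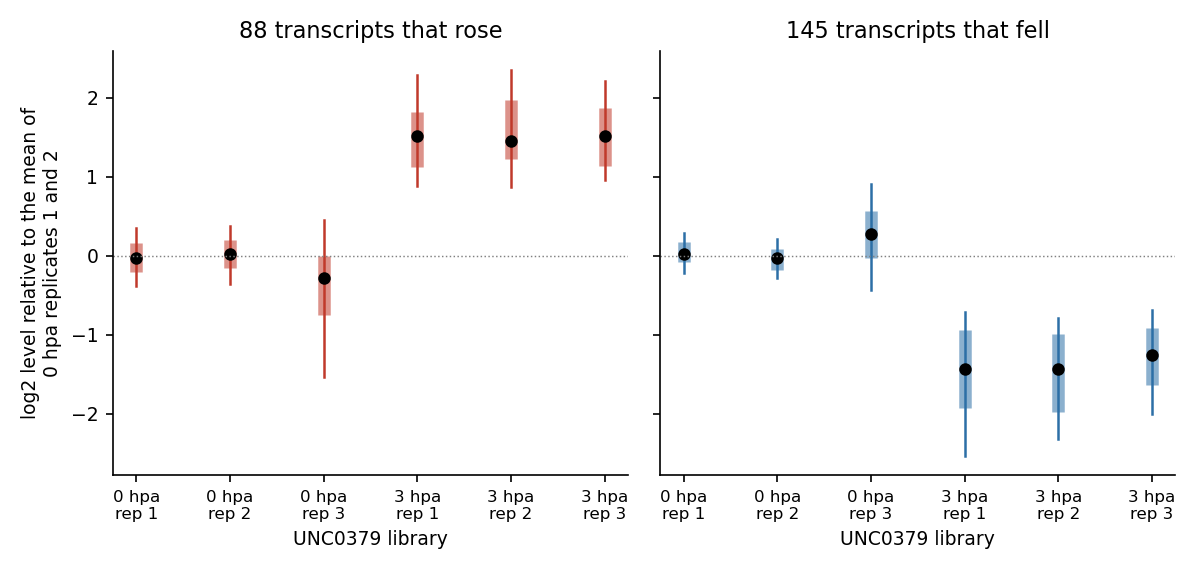
Level of the 88 transcripts that rose (left, red) and the 145 that fell (right, blue) in each UNC0379 library, as log2 of the level relative to the mean of 0 hpa replicates 1 and 2. The point is the median over transcripts, the thick bar runs from the 25th to the 75th percentile and the thin line from the 10th to the 90th. At 3 hpa the medians were 1.51, 1.45 and 1.51 for the rises and -1.43, -1.43 and -1.25 for the falls, and 0 hpa replicate 3 sat at -0.284 and 0.269, on the side away from the 3 hpa libraries.

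The libraries of 3 hpa gave much the same picture of the changed transcripts, and the spread lay mostly in the group of 0 hpa. Replicate 3 of 0 hpa was the lowest of its group for 47 of the 88 rises (53.4%), against 38.5% of all tested transcripts, with 15 for replicate 1 and 21 for replicate 2. It was the highest of its group for 88 of the 145 falls (60.7%), against 40.6% of all tested transcripts, with 26 and 31 for the other replicates. For most of the changed transcripts it therefore widened the difference between the times. The transcripts were called with this library, a choice that favours those it sets apart. It was the lowest for 33 of the 48 rises called only with it and for 14 of the 40 called also without it. It was the highest for 43 of the 50 falls called only with it and for 45 of the 95 others.

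Leaving out replicate 3 of 0 hpa left 146 called transcripts of 5356 tested (2.73%), of which 42 rose (0.784%) and 104 fell (1.94%). Of the 88 rises 40 were still called (45.5%), and 2 others were gained. The 48 that were lost all kept their sign, all had an unadjusted p under 0.05, and had adjusted p-values from 0.0508 to 0.296. Their median log2 fold change went from 1.8 to 1.5 while that of the 40 kept went from 1.92 to 1.96, and they were scarcer, with a median of 24.4 CPM over the libraries against 65.9 CPM. Of the 145 falls 95 were still called (65.5%) and 9 were gained. The 50 that were lost also kept their sign, with adjusted p-values from 0.0508 to 0.402 and a median log2 fold change that went from -1.52 to -1.19. Over all 88 rises the median went from 1.89 to 1.70, and over all 145 falls from -1.68 to -1.51.

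Other UNC0379 libraries also cost calls when left out, but the fold changes moved less. Without 3 hpa replicate 2 the calls numbered 135, with 48 rises and 87 falls, and without 3 hpa replicate 3 they numbered 157, with 61 and 96. The median log2 fold change of the 88 rises was then 1.88 and 1.96, and was 1.97 and 1.98 without replicates 1 and 2 of 0 hpa and 1.87 without replicate 1 of 3 hpa. For the 145 falls the contrast was weaker. Their median was -1.61, -1.58 and -1.79 without replicates 1, 2 and 3 of 3 hpa and -1.69 and -1.74 without replicates 1 and 2 of 0 hpa. It was -1.51 without replicate 3 of 0 hpa and -1.68 with all libraries. Taken as the only library of 0 hpa, with the spread borrowed from the other groups, replicates 1 and 2 gave 69 and 67 calls and replicate 3 gave 588, of which 367 rose. Replicate 3 alone moved the balance from more falls to more rises. With the fit confined to the 6 libraries compared, 141 transcripts were called, and leaving out replicate 3 there raised the number to 279, with 121 rises and 158 falls, which included 69 of the 88 rises and 99 of the 145 falls. The library thus added fold change for the transcripts called and, where the spread came from the compared libraries alone, came with fewer calls.

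**Figure D2:**
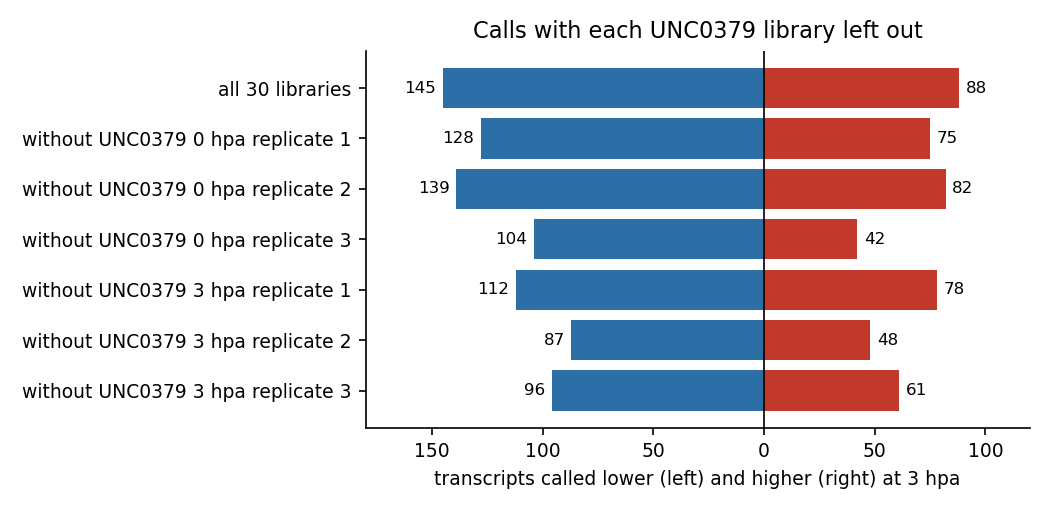
Transcripts called higher (red, right of 0) and lower (blue, left of 0) at 3 than at 0 hpa under UNC0379, by the number of transcripts, with all 30 libraries and with each of the 6 UNC0379 libraries left out of the fit. The rises went from 88 to 42 without 0 hpa replicate 3 and to 48 without 3 hpa replicate 2, and the falls from 145 to 104 and 87.

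The transcript with the smallest adjusted p among the rises was Sc4wPfr_519.g17998.t1, which stood at 185, 178 and 75.1 CPM at 0 hpa and at 806, 841 and 614 CPM at 3 hpa. Replicate 3 was the lowest at both times, and the groups were far apart. The log2 fold change was 2.37 (SE 0.265, edgeR adjusted p = 1.38e-07), and 2.05 without replicate 3 of 0 hpa. In DMSO it stood at 270, 215 and 326 CPM at 0 hpa and at 377, 462 and 334 CPM at 3 hpa, a log2 fold change of 0.52 (SE 0.253, adjusted p = 0.366). The difference between the changes was 1.85 (SE 0.362, adjusted p = 0.00195). The rise did not last, as the UNC0379 group means were 598 ± 37.6 CPM at 8 hpa, 325 ± 39.4 at 12 hpa and 51.7 ± 9.03 at 24 hpa (SD, n = 3), the last below the start (log2 fold change -1.56, adjusted p = 0.00116). In DMSO the mean also reached 41.5 ± 24.6 CPM at 24 hpa.

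The next, MSTRG.21701.1, was scarce at the cut, with 2.06, 12.6 and 15 CPM at 0 hpa from 1, 7 and 9 counts, and 157, 118 and 115 CPM at 3 hpa. The groups were well separated, with replicate 1 at the low end at 0 hpa and at the high end at 3 hpa. The log2 fold change was 3.62 (SE 0.42, adjusted p = 2.47e-07), and 4.03 without replicate 3 of 0 hpa. This transcript also rose in DMSO, from 11.2, 13.4 and 28.6 CPM to 66.9, 61.8 and 30.5 CPM (log2 fold change 1.5, adjusted p = 0.0344), a call that was lost without any of DMSO 0 hpa replicates 1 and 2 or DMSO 3 hpa replicates 1 and 2, with adjusted p-values up to 0.271. The difference between the treatments missed the threshold at 2.12 (SE 0.609, adjusted p = 0.0502) and passed it without replicate 3 of UNC0379 0 hpa (2.54, adjusted p = 0.0365). It also passed with DESeq2 (adjusted p = 0.0217), RLE size factors (0.0439), the stricter filter (0.0417), counts per gene model (0.0464) and without all 24 hpa libraries (0.023), and missed with limma-voom (0.0527), no filter (0.0944), thinning (0.151) and only the libraries compared (0.0746). The adjusted p of the difference ran from 0.0312 to 0.342 with 1 library left out.

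Among the falls the smallest adjusted p belonged to Sc4wPfr_80.g19903.t1, which went from 233, 246 and 297 CPM to 22.5, 34.6 and 44.6 CPM. All 3 libraries of 3 hpa lay far below the lowest of 0 hpa. The log2 fold change was -2.85 (SE 0.253, adjusted p = 1.75e-09), and -2.73 without replicate 3 of 0 hpa. The DMSO tips held it at 376, 558 and 366 CPM at 0 hpa and at 353, 345 and 415 CPM at 3 hpa, without a call (log2 fold change -0.21, adjusted p = 0.733), and the difference between the treatments was -2.64 (SE 0.327, adjusted p = 2.91e-06). Under UNC0379 the level stayed low, at 60.4 ± 13 CPM at 8 hpa, 64.4 ± 9.81 at 12 hpa and 94.5 ± 20.6 at 24 hpa (SD, n = 3).

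The most abundant of the named falls was Sc4wPfr_268.g25743.t1, at 5645, 5479 and 7072 CPM at 0 hpa and 1599, 1415 and 1967 CPM at 3 hpa. The log2 fold change was -1.87 (SE 0.18, adjusted p = 7.91e-09), and -1.75 without replicate 3 of 0 hpa. In DMSO it ran from 13236, 11792 and 11602 CPM to 8945, 8778 and 9869 CPM, so that all 3 DMSO libraries of 3 hpa were also below those of 0 hpa, but by less (log2 fold change -0.41, adjusted p = 0.279), and the difference between the treatments was -1.46 (SE 0.247, adjusted p = 0.000276). It was already lower under UNC0379 than in DMSO at 0 hpa (-1.01, SE 0.175, adjusted p = 0.00027). So were Sc4wPfr_80.g19903.t1 (-0.74, adjusted p = 0.0373) and Sc4wPfr_519.g17998.t1 (-0.90, adjusted p = 0.0421), the latter not without replicate 3 (-0.58, adjusted p = 0.208). MSTRG.21701.1 was not called at 0 hpa (-0.80, adjusted p = 0.491). These 4 were picked in these data for the smallest adjusted p, so that how often they passed again is a description. Some alternative settings left out only a DMSO library, which enters the UNC0379 change through the shared filter, normalization and spread alone. All 4 of these transcripts kept their UNC0379 call in all 29 alternative settings, and no name was found for any of them.

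Of 16 loci that the study's figures name, 3 had enough counts to be tested. The transcript of dickkopf-related protein 3 (Sc4wPfr_504.g10351.t1), a secreted protein of the Dickkopf family, whose best known members in vertebrates inhibit Wnt signalling, stood at 28.9, 43.1 and 91.8 CPM at 0 hpa and 25.7, 6.11 and 13.1 CPM at 3 hpa. The groups did not overlap, but 28.9 and 25.7 CPM were close, and replicate 3 of 0 hpa was the highest by far. The log2 fold change was -2.0 (SE 0.436, adjusted p = 0.00303), and it did not pass the threshold without replicate 3 of 0 hpa (-1.40, adjusted p = 0.106) or without replicate 2 of 3 hpa (-1.62, adjusted p = 0.0555). Over 29 alternative settings the log2 fold change ran from -2.73 to -1.04 and the adjusted p from 0.000134 to 0.71, and 22 kept the call. In DMSO the transcript was not called, at 90, 85 and 88 CPM at 0 hpa and 75, 89 and 103 CPM at 3 hpa, and all 3 UNC0379 libraries of 3 hpa were below all of these. So were UNC0379 replicates 1 and 2 of 0 hpa, at 28.9 and 43.1 CPM. Against DMSO at 0 hpa the transcript was not called (-0.66, edgeR adjusted p = 0.334). Without replicate 3 of UNC0379 0 hpa it was called lower there (-1.28, adjusted p = 0.0295). The difference between the changes was -2.03 (SE 0.548, adjusted p = 0.0316), and -1.42 (adjusted p = 0.188) without replicate 3 of 0 hpa, and it missed the threshold without any of 7 of the 12 libraries of 0 and 3 hpa.

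The transcript of Brachyury protein-like (Sc4wPfr_489.2.g16698.t1) stood at 14.4, 10.8 and 5.01 CPM at 0 hpa, from 7, 6 and 3 counts, and at 35.3, 30.5 and 19.7 CPM at 3 hpa, from 11, 15 and 15 counts. All 3 libraries of 3 hpa lay above those of 0 hpa, but the change did not pass the threshold (log2 fold change 1.45, SE 0.505, adjusted p = 0.104), nor did it without replicate 3 of 0 hpa (1.11, adjusted p = 0.449). In DMSO it stood at 2.5, 2.24 and 1.36 CPM at 0 hpa, from 2, 1 and 1 counts. At 3 hpa it stood there at 13.4, 9.15 and 6.41 CPM, from 5, 4 and 4 counts. The log2 fold change in DMSO was 2.06 (SE 0.768, adjusted p = 0.181), and the difference between the changes was -0.61 (SE 0.865, adjusted p = 0.876). The UNC0379 libraries lay above the DMSO libraries of the same time, without a call (adjusted p = 0.0966 at 0 hpa and 0.0741 at 3 hpa). Of 28 alternative settings, 1 called the UNC0379 rise by its adjusted p, that without all 24 hpa libraries (1.49, adjusted p = 0.047). At 8, 12 and 24 hpa the UNC0379 means were 32.1 ± 5.66, 32.7 ± 3.07 and 8.35 ± 6.2 CPM, and the DMSO means were 14.9 ± 9.59, 26.8 ± 12.8 and 16.8 ± 8.52 CPM (SD, n = 3). Against 0 hpa it was called higher under UNC0379 at 8 and 12 hpa (adjusted p = 0.0298 and 0.0324), but not without replicate 3 of 0 hpa (0.193 and 0.209). In DMSO it was called higher at 8, 12 and 24 hpa (adjusted p = 0.012, 0.00024 and 0.00828). NHL repeat-containing protein 2 (Sc4wPfr_433.g11169.t1) was at 49.5, 48.5 and 20 CPM at 0 hpa and 25.7, 22.4 and 23.6 CPM at 3 hpa, groups that overlap through replicate 3 of 0 hpa, with a log2 fold change of -0.71 (SE 0.486, adjusted p = 0.54), -1.04 without that replicate (adjusted p = 0.41) and 0.51 in DMSO (adjusted p = 0.717).

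The other 13 loci could not be tested. Among the 5 with any reads in the 6 libraries were villin-1, which bundles actin filaments, with 10 counts at 0 hpa and 12 at 3 hpa, and frizzled5/8, a Wnt receptor, with 1 and 0. The 8 with 0 counts in all 6 libraries included N-lysine methyltransferase KMT5A-A, the target of the inhibitor, a Notch homolog and DNA topoisomerase 2-alpha. A count of 0 among the 3303077 assigned reads of the 6 libraries allows up to 0.908 CPM (3 counts), for counting error only. Since reads ambiguous between transcripts were not assigned, this limits the assigned reads and not the expression of these genes. All of these 8 loci but bifunctional arginine demethylase PSR had 2 or 3 transcript models, whereas the 3 tested loci had 1 each. Whether this lowered their assigned reads was not tested. Summing counts per gene model does not restore reads left unassigned.

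**Figure D3:**
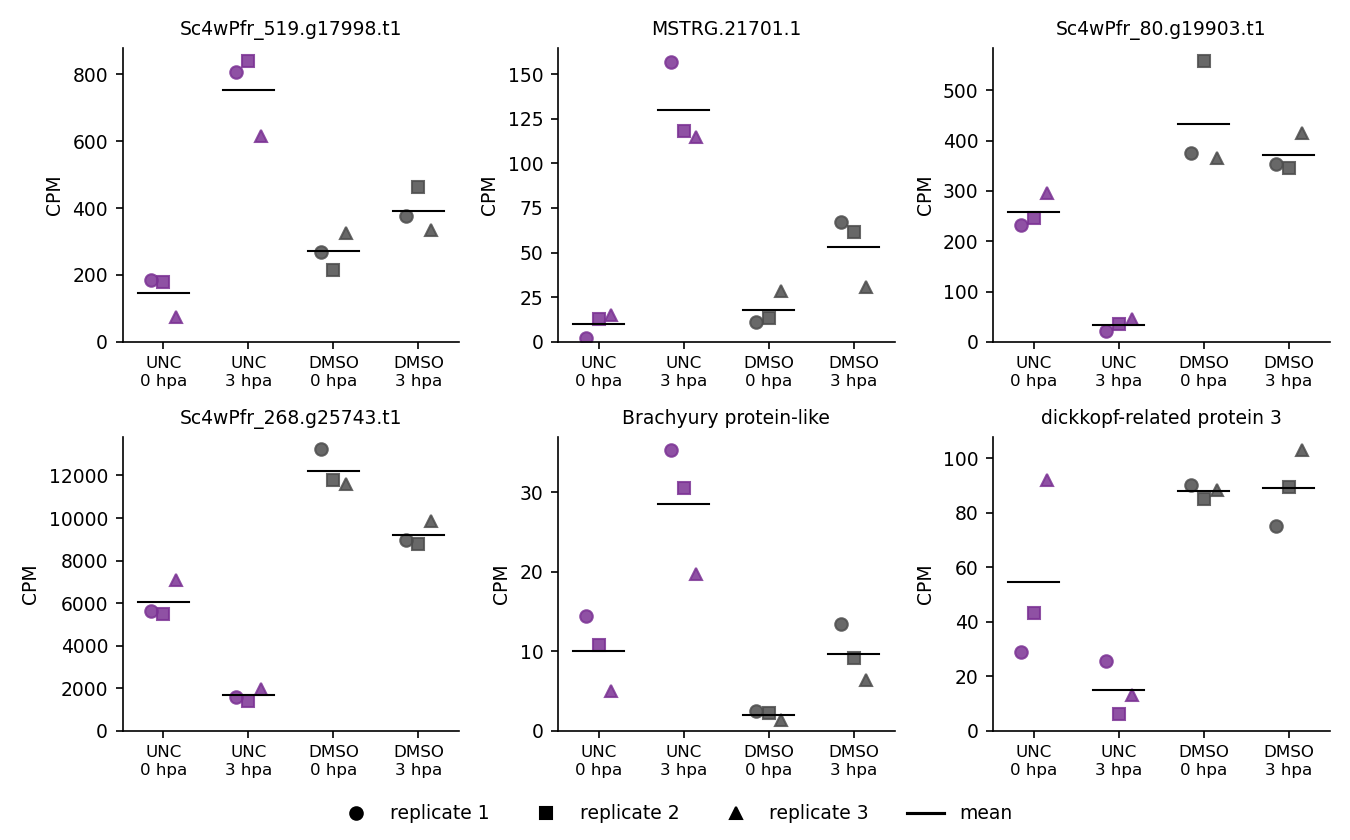
Normalized level in CPM, on linear axes from 0, of 4 transcripts with the smallest adjusted p and of the Brachyury and dickkopf-related loci, in each library of UNC0379 (purple) and DMSO (grey) at 0 and 3 hpa. Symbols mark the replicate number and the line the mean of 3 libraries. Sc4wPfr_80.g19903.t1 went from 233 to 297 CPM down to 22.5 to 44.6 CPM under UNC0379, while its DMSO libraries stayed between 345 and 558 CPM.

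Few transcripts were called in both treatments over the same interval, and which treatment had more calls depended on the libraries. Between 0 and 3 hpa 124 transcripts (2.46%) were called in DMSO, of which 48 rose (0.951%) and 76 fell (1.51%), a number that ran from 59 without DMSO 0 hpa replicate 1 to 203 without DMSO 0 hpa replicate 2. Without DMSO 0 hpa replicate 3 there were 60 calls, and without replicates 1, 2 and 3 of DMSO 3 hpa there were 78, 66 and 74. The UNC0379 calls outnumbered these with all libraries (233), but not without replicate 3 of UNC0379 0 hpa (146 against 164), with the libraries of 1 treatment in each fit (134 against 211) or with only the libraries compared (141, below the DMSO number). In both treatments 9 transcripts rose and 2 fell, together 4.72% of the UNC0379 calls and 8.87% of the DMSO calls, and 6 moved in opposite directions. Without replicate 3 of UNC0379 0 hpa 7 moved the same way. Over all tested transcripts the log2 fold changes of the treatments, which share no library, correlated at 0.143.

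The transcripts that fell under UNC0379 lay close to 0 in DMSO. The 145 falls had a median log2 fold change of -0.10 in DMSO, with 59 above 0 and with 2 called higher and 2 lower. The 88 rises leaned the same way in DMSO, with a median of 0.30 and 60 of 88 above 0 (68.2%, against 50.2% of all tested transcripts), and with 9 called higher and 4 lower (10.2% and 4.55%, against 0.951% and 1.51% of all tested). Restricted to the 40 rises called without replicate 3, the DMSO median was 0.53 and 7 were called higher. Seen from the other side, the 48 transcripts that rose in DMSO had a median log2 fold change of 1.57 there and 0.38 under UNC0379, with 32 above 0, or 0.12 and 28 without replicate 3 of UNC0379 0 hpa. The 76 that fell in DMSO had a median of -1.63 there and -0.09 under UNC0379, or 0.03 without that replicate, a sign that turned with 1 library.

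**Figure D4:**
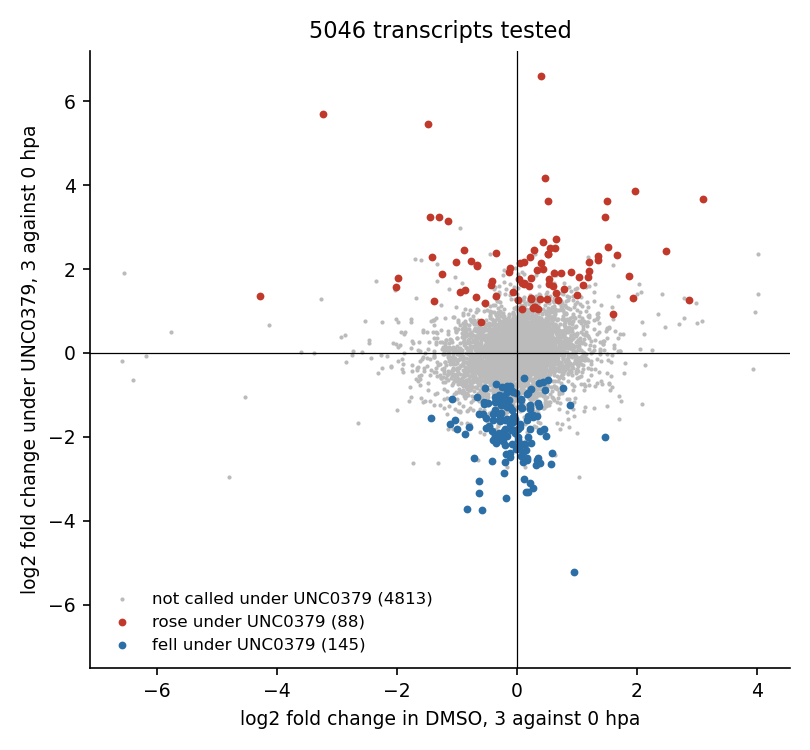
Log2 fold change from 0 to 3 hpa under UNC0379 (vertical) against that in DMSO (horizontal) for each of the 5046 tested transcripts. Red points rose (88) and blue points fell (145) under UNC0379 at an adjusted p under 0.05, and grey points were not called. The blue points lie in a narrow column around 0 in DMSO (median -0.10) and the red points spread more widely (median 0.30).

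The difference of the 3 hpa change between the treatments was itself tested and passed the threshold for 135 transcripts (2.68%). The change was more positive under UNC0379 for 53 (1.05%), with a median log2 fold change of 1.18 under UNC0379 and -1.38 in DMSO. Of these 25 were rises under UNC0379 and 27 were falls in DMSO, with 4 called in both and 5 in neither. The 82 more negative under UNC0379 (1.63%) had medians of -1.81 and 0.19, and 68 of them were falls under UNC0379 while 10 were rises in DMSO, with 2 called in both and 6 in neither. Of the 145 falls 68 passed the test of the difference (46.9%, against 1.63% of all tested transcripts called more negative). Of the 88 rises 25 passed it (28.4%, against 1.05% called more positive). The falls and rises were chosen on the UNC0379 change, which is part of the difference, and these counts are descriptions. Without replicate 3 of UNC0379 0 hpa 61 of the 82 and 43 of the 53 were still called, and 132 were called in all.

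At 3 hpa the falling transcripts stood well below DMSO, and part of that gap was present at the cut. Their median log2 difference from DMSO was -0.51 at 0 hpa, where 37 were called lower (25.5%, against 2.97% of all tested transcripts), and -2.26 at 3 hpa, where 129 were called lower (89.0%, against 5.47%). The rising transcripts had a median of -0.47 at 0 hpa, with 12 called lower and 3 higher (1.17% of all tested transcripts were higher), and of 1.10 at 3 hpa, with 37 called higher (42.0%, against 1.61%). Without replicate 3 of 0 hpa the medians at 0 hpa were -0.64 and -0.34, with 46 falls and 6 rises called lower. These comparisons share the UNC0379 libraries on which the transcripts were chosen, and the values are given side by side as descriptions.

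The changes of 3 hpa were mostly still present later under the inhibitor. The 88 rises had medians of 1.86 at 8 hpa, 1.55 at 12 hpa and 0.53 at 24 hpa against 0 hpa, and 67, 49 and 22 were called higher (2.36%, 1.98% and 5.23% of all tested transcripts), with 4 called lower at 24 hpa. The 145 falls had medians of -1.43, -1.33 and -1.42, with 108, 87 and 102 called lower (3.63%, 2.46% and 9.12% of all tested). The median of the rises was lowest at 24 hpa, and that of the falls stayed between -1.43 and -1.33 at these times. Without replicate 3 of 0 hpa the rises had medians of 1.70, 1.41 and 0.38 and the falls of -1.30, -1.19 and -1.35. All these comparisons share the 0 hpa libraries with the choice of the transcripts. In DMSO, measured on other libraries, the rises had medians of 0.39, 0.47 and -0.23 at 8, 12 and 24 hpa, and the falls of -0.26, -0.39 and -0.04, so that at each of these times the median fall was larger under UNC0379.

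Between 3 and 8 hpa under UNC0379 no transcript passed the edgeR threshold, with a lowest adjusted p of 0.0852 and 276 transcripts at an unadjusted p under 0.05, whereas DESeq2 called 21 and limma-voom 3. The 88 rises had a median log2 change of 0.06 over this step and the 145 falls of 0.27. Of the 145 falls 103 had a change above 0 (71%, against 51.9% of all tested transcripts). Without replicate 3 of 0 hpa the medians were 0.05 and 0.25 and edgeR again called none. This step uses the libraries of 3 hpa, on which the transcripts were chosen to be extreme.

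**Figure D5:**
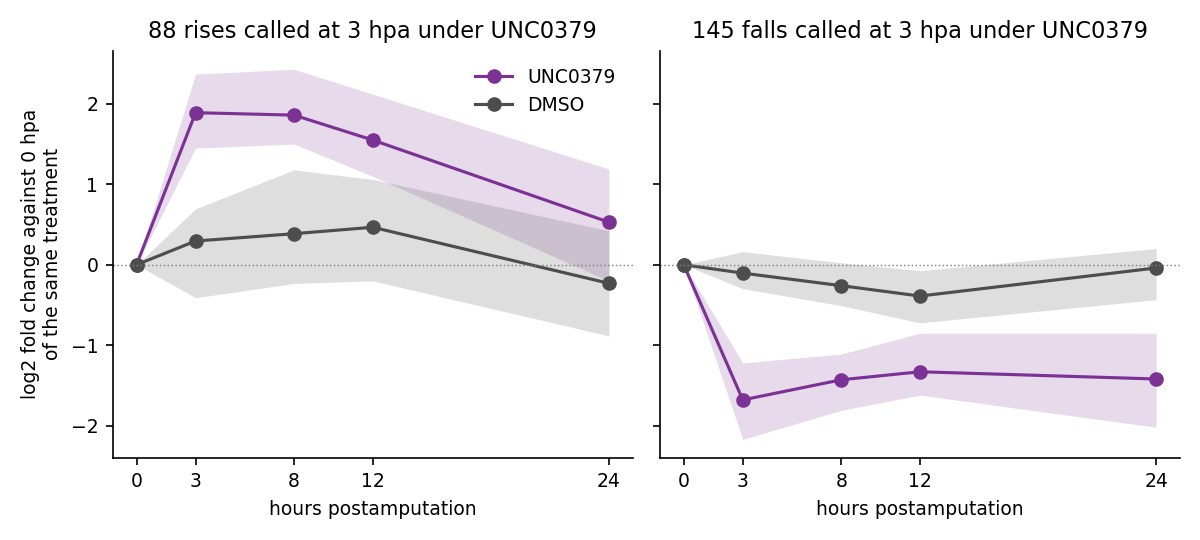
Median log2 fold change against 0 hpa of the same treatment (vertical) over hours postamputation (horizontal), for the 88 rises (left) and the 145 falls (right) called at 3 hpa under UNC0379. Purple is UNC0379 and grey is DMSO, and the bands run from the 25th to the 75th percentile over transcripts. The UNC0379 rises went from 1.89 at 3 hpa to 0.53 at 24 hpa, the falls from -1.68 to -1.42, and the DMSO medians stayed between -0.39 and 0.47.

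The kind of identifier differed between rises and falls. Of the tested transcripts 1372 (27.2%) carry an MSTRG identifier, the prefix that the assembler StringTie gives to transcripts it builds, and 3674 carry a gene model named after a genome scaffold (Sc4wPfr). Of the 145 falls 10 were MSTRG transcripts (6.9%), against 29 of the 88 rises (33%). Among MSTRG transcripts 0.729% fell, against 3.67% of the Sc4wPfr transcripts, and the order was the same in the lowest (0.191% and 2.16%), middle (0.584% and 3.85%) and highest (1.79% and 4.83%) of 3 equal classes of mean level. The median log2 fold change was 0.18 for MSTRG and -0.11 for Sc4wPfr transcripts. For the rises the shares were closer, at 2.11% of MSTRG and 1.61% of Sc4wPfr transcripts. They were 1.91% and 1.04% in the lowest class, 2.14% and 2.05% in the middle and 2.39% and 1.71% in the highest. Without replicate 3 of 0 hpa 12 of the 104 falls and 9 of the 42 rises were MSTRG transcripts, a smaller contrast than with it. The MSTRG share of these rises lay below the 27.2% of the transcripts tested with all libraries, whereas the 33% with replicate 3 lay above. For the rises the side of that share thus turned with 1 library. The share of all assigned counts on MSTRG transcripts was 13.9%, 13.4% and 12.5% at 0 hpa and 14.7%, 15.7% and 15.5% at 3 hpa, groups that do not overlap (exact permutation test, two-sided, p = 0.1, the smallest possible here), and in DMSO 13.0% to 14.2% and 13.9% to 14.4%. Its part in the difference between the identifiers was not tested.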

How the data were processed

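The values the authors deposited, raw counts of reads for each transcript with 1 file for each library, were used. The submitters' processing notes list Trimmomatic, HISAT2 and HTSeq. Versions, the genome build, the annotation and whether strand was used in counting: not given in the sources used here. Overlapping or antisense genes cannot be told apart from these counts. The 5 summary lines of HTSeq (reads not assigned to a transcript, of which those not aligned made up 27.7% to 64.2% of the reads in the 6 libraries) were left out. Tests were run with edgeR 4.0.16 in R 4.3.3 (filterByExpr, TMM, robust quasi-likelihood fit, 1 coefficient per group over all 30 libraries, common biological coefficient of variation 22.6%). Adjusted p-values are Benjamini-Hochberg values with a threshold of 0.05, taken from edgeR where no tool is named. CPM use TMM library sizes. For correlations of libraries, a prior count of 2 was added before taking log2 CPM. Percentages of counts and limits of a count of 0 cover counting error only. Alternatives were DESeq2 1.42.0, limma-voom (limma 3.58.1), RLE and upper-quartile normalization, other filters, limits of 0.01 on the unadjusted p and 0.58 on the log2 fold change, the replicate block, counts per gene model, thinning to 316893 reads for the UNC0379 comparison, fewer groups and each library left out. The single 0 hpa libraries and the 5-library fit were added after seeing the data. The scripts were tested on simulated data. Named transcripts were the figure loci of the study and, as no identifier of the 233 called was found in the reference table, the 2 rises and 2 falls with the smallest adjusted p whose groups do not overlap. Members and lists were chosen with earlier results of these data known. Figures were drawn with matplotlib 3.10.9.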

Additional observations from a re-analysis of the deposited data

Results flagged for a closer look

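The change from 0 to 3 hpa differed between UNC0379 and DMSO for 135 transcripts in a test of the difference itself (edgeR, Benjamini-Hochberg adjusted). Among the named transcripts the log2 difference, UNC0379 minus DMSO, was 1.85 for Sc4wPfr_519.g17998.t1, -2.64 for Sc4wPfr_80.g19903.t1, -1.46 for Sc4wPfr_268.g25743.t1 and -2.03 for dickkopf-related protein 3. The first 3 of these were picked for the small adjusted p of their UNC0379 change, which is part of the difference. The first 3 were called with each of the 12 UNC0379 and DMSO libraries of 0 and 3 hpa left out in turn, and the last missed the threshold without any of 7 of them (edgeR adjusted p from 0.0619 to 0.188), the highest without UNC0379 0 hpa replicate 3 (-1.42).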

How the results depend on the processing

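With 1 library left out the UNC0379 calls ran from 135 (without 3 hpa replicate 2) to 245, the rises from 42 (without 0 hpa replicate 3) to 95 and the falls from 87 to 150, the DMSO calls from 59 to 203 and the calls of the difference from 90 to 197. The share of called transcripts whose UNC0379 libraries did not overlap was 97.9%, against 20.4% of all tested transcripts. Without 0 hpa replicate 3 it was 100%, against 28.8% of all tested. With an unadjusted p under 0.01 and a log2 fold change over 0.58 there were 372 UNC0379 calls, 155 of them rises, 280 in DMSO and 306 of the difference. Thinning left 55 rises. Without all 24 hpa libraries there were 152 rises under UNC0379, 234 calls in DMSO and 255 of the difference. With the libraries of 1 treatment there were 134 UNC0379 calls, 74 of them falls, and 211 in DMSO, and with the libraries compared alone 141 UNC0379 calls, 55 rises and 86 falls. As the only 0 hpa library, an alternative added after seeing the data, replicate 1 gave 69 calls (20 rises, 49 falls) and 66 of the difference, replicate 2 gave 67 (22 and 45) and 73, and replicate 3 gave 588 (367 and 221) and 263. The difference tested on the 11 libraries left without that replicate, also added, gave 245. The cause of these shifts was not tested, beyond the fewer libraries in the fits.

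RLE, upper-quartile normalization, DESeq2, limma-voom, both other filters and counts per gene model kept the UNC0379 calls between 185 and 247, and no called fold change of a named transcript turned its sign in any setting. Rises made up 37.8% of the UNC0379 calls, 45.2% with RLE and 46.6% with DESeq2. Under the replicate block the calls were 254 under UNC0379, 150 in DMSO and 175 of the difference, and the adjusted p of the difference for MSTRG.21701.1 went from 0.0502 to 0.046. Same-numbered libraries of 0 and 3 hpa deviated together at r = -0.0469, 0.286 and 0.241, and libraries of unlike number at -0.313 to 0.145. Whether same-numbered libraries belong together was not tested. Depth limits what can be seen of scarce transcripts, as 1 read was worth up to 3.16 CPM.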
